A study of Mus musculus with 4 samples.

Results

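The genes described here are 58 genes that drive and carry out mitosis. They encode the mitotic cyclins and kinases, the spindle assembly checkpoint, the kinetochore, the mitotic kinesins, the cytokinesis machinery and the condensin complex. They were taken by gene symbol from the 23699 entries of the authors' expression table. Every symbol had 1 locus there, and all 58 are among the 10367 entries that reached 1 FPKM (fragments per kilobase of transcript, scaled to the mapped fragments of each library) in at least 2 libraries. All 58 were above that level in both B10+ libraries and in the B10- library of culture 1, so no member passed through the B10+ libraries alone.

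RNA was measured in B10+ and B10- cells of the mouse spleen (strain C57BL/6, with no genetic change given in the labels). B10+ cells are regulatory B cells, gated on high Cd1d, on Cd5 and on the anti-inflammatory cytokine Il10. B10- cells lacked all 3 of these markers in the sort. There are 4 libraries from 2 cultures, each culture having been sorted into both subsets. All cells had been held with an antibody to Cd40 for 48 h, with LPS, PMA and ionomycin present in the final 5 h. The age of the mice, and whether the cultures came from different or pooled animals, were not given in the sources used here, so p-values measure the spread between these cultures. The comparison asks how far the mitotic genes differ between the subsets within a culture. Cells without Il10 that carry Cd1d or Cd5 are in neither subset, so Il10 production and the Cd1d and Cd5 phenotype cannot be told apart.

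A cell enters mitosis when cyclin B binds and activates the kinase Cdk1. Kinetochores then form on the centromeres and catch spindle microtubules, and the checkpoint holds the cell until every chromosome is attached. The anaphase-promoting complex next marks securin and cyclin B for destruction, the chromatids part, and cytokinesis divides the cell. Most of these genes are transcribed in a wave late in the cell cycle, and resting B cells carry little of their RNA until stimuli such as Cd40 ligation and LPS drive the cells to divide. In bulk RNA, fewer dividing cells and less of this RNA per cell cannot be told apart.

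The mitotic genes lay higher in B10+ cells almost without exception, and far more so in culture 2. In both cultures 57 of 58 members (98.3%) were higher in B10+ cells, against 33.4% of all tested entries, and 1 member, Pttg1, was lower in both. The median B10+ to B10- ratio of FPKM over the 58 genes was 1.65 in culture 1 (lowest 0.954, highest 5.68) and 10.3 in culture 2 (lowest 0.906, highest 114). On the log2(FPKM + 1) scale used for testing, which understates the change of low genes, the median difference was 0.70 in culture 1 and 2.46 in culture 2, or 1.60 over both. The same medians over all tested entries were -0.0085, 0.021 and 0.0028. More than a 2-fold difference on that scale was seen in both cultures for 13 members (22.4%), against 2.28% of all tested entries.

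**Figure D1:**
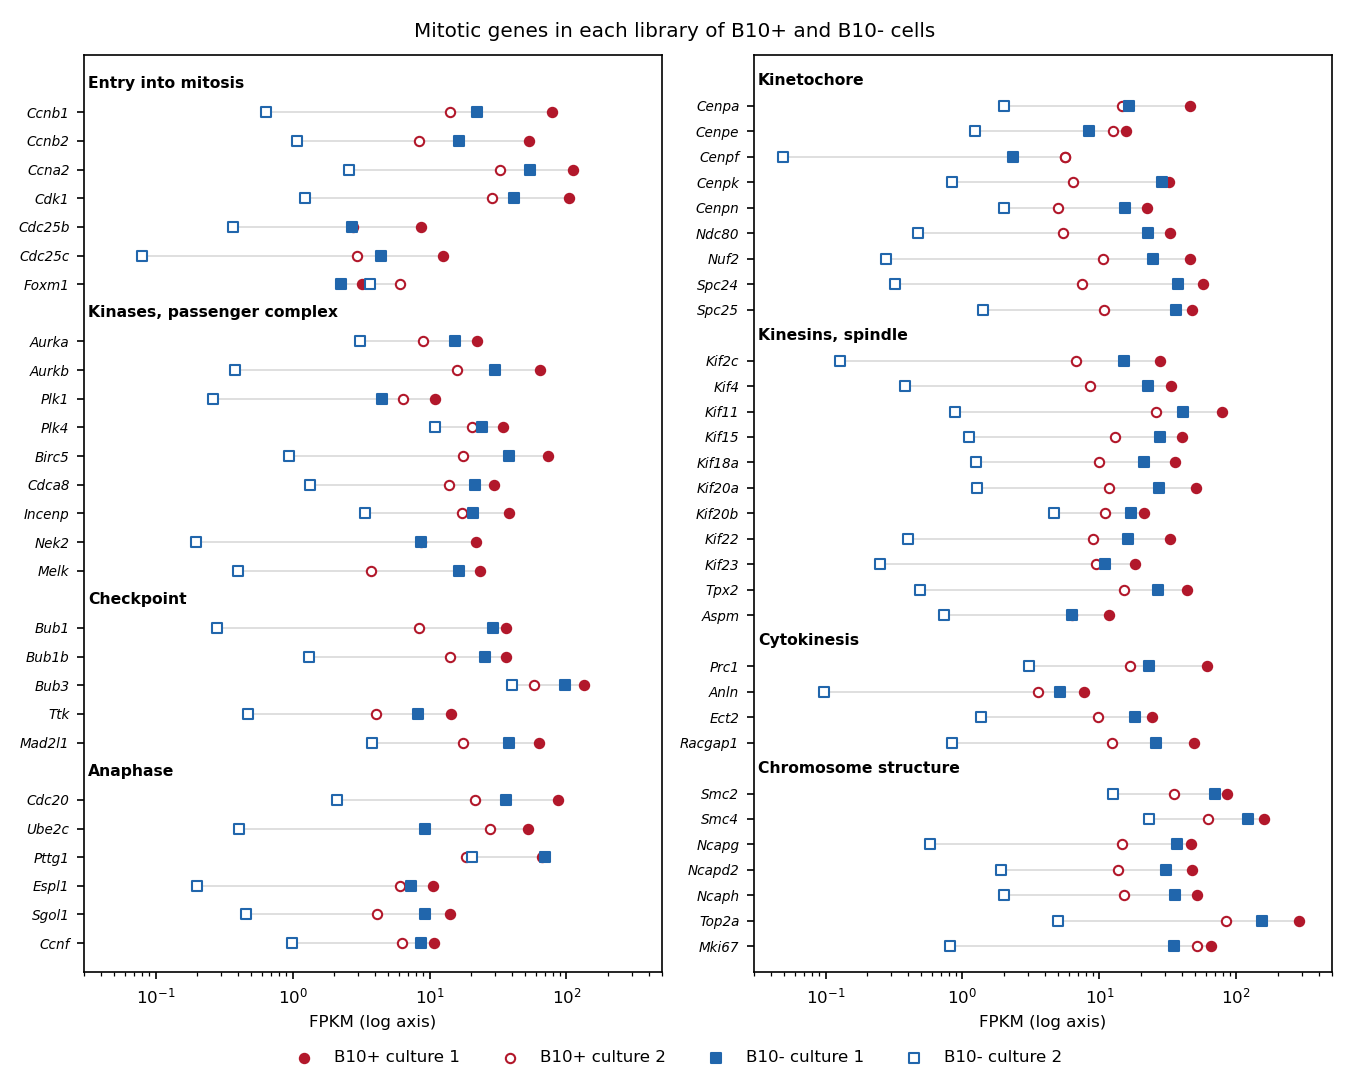
FPKM (log axis) of the 58 mitotic genes, grouped by role, with 1 point for each of the 4 libraries (red circles B10+, blue squares B10-, filled culture 1, open culture 2). The open blue squares, B10- cells of culture 2, stand apart to the left for nearly all genes, and Pttg1, Foxm1, Bub3 and Plk4 are exceptions in that their 4 points span a small range or, for Pttg1, pair by culture.

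No member passed the test across all genes. limma-trend without the culture in the model called 0 of 58 members and 0% of all tested entries in either direction (Benjamini-Hochberg adjusted p threshold of 0.05), with Ube2c the 1 member at an unadjusted p under 0.05. With the culture as a replicate block, limma-trend again called 0 of 58 members, against 0.781% of all tested entries called higher and 0.0772% called lower. In that fit 53 members, all higher in B10+ cells, had an unadjusted p under 0.05. Of all tested entries, 10.5% were higher in B10+ cells at that p. The smallest limma adjusted p with the block were 0.0549 for Ccnb2, 0.0566 for Cdc25b, 0.0692 for Cdc25c and 0.0723 for Prc1. The blocked count depended on scaling. It was 7 members higher after quantile normalization (1.61% of all tested entries) and 16 higher after centring each library on its median (3.16% of all tested entries), the last an alternative chosen after seeing the data.

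The cultures bear on this comparison, since most members also differed between them. In 49 of 58 members the 4 libraries stood in the order B10+ culture 1, B10- culture 1, B10+ culture 2, B10- culture 2, an order seen in 22.2% of all tested entries. Both B10+ libraries lay above both B10- libraries for 7 members (12.1%, against 6.6% of all tested entries), namely Ube2c, Cdc25b, Plk1, Cenpe, Cenpf, Aspm and Mki67. Leaving out B10- replicate 2, the library of culture 2, took the median difference of the 58 genes to -0.063 on the log2 scale and turned the direction of 31 of them. Leaving out B10- replicate 1 took it to 3.18, with 28 members called higher (against 1.25% of all tested entries), and leaving out B10+ replicate 1 took it to 0.84. Fits with a library left out mix the culture difference into that of the subsets by construction.

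**Figure D2:**
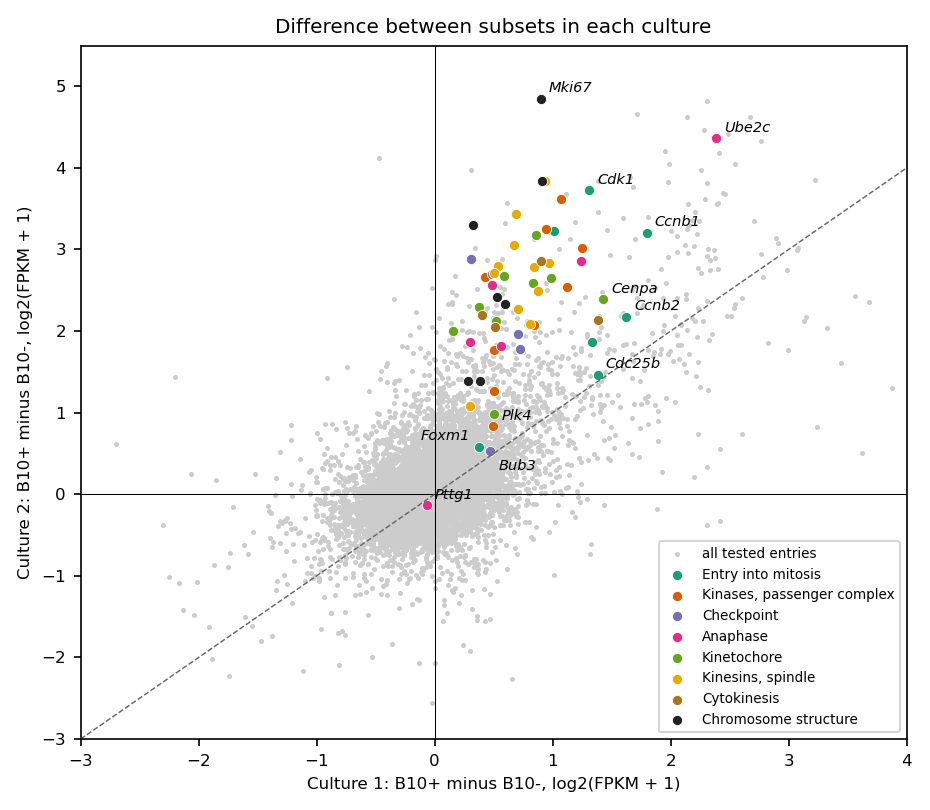
B10+ minus B10- difference of log2(FPKM + 1) in culture 1 (x axis) and culture 2 (y axis), with the mitotic genes coloured by role and all tested entries in grey (20 entries lie outside the axes, and the dashed line marks equal differences). All mitotic genes but Pttg1 lie in the upper right part of the plot and above the dashed line, with Ube2c at 2.39 and 4.36 and Mki67 at 0.90 and 4.85.

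The promoters of the genes with the largest and the smallest difference are printed here because most mitotic genes share known promoter elements. These are the cell cycle genes homology region, or CHR, which the DREAM and Mybl2-Foxm1 complexes bind, and the CCAAT box, bound by NF-Y. Sequences are the 250 bases before the first listed RefSeq start in GRCm38.p6, 5′ to 3′ on the strand of the gene. They come from the 4 members with the largest and the 3 with the smallest log2 difference among those in the promoter table. Capitals mark matches on either strand to TTTGAA or TTCGAA (CHR) and to CCAAT.
Ube2c: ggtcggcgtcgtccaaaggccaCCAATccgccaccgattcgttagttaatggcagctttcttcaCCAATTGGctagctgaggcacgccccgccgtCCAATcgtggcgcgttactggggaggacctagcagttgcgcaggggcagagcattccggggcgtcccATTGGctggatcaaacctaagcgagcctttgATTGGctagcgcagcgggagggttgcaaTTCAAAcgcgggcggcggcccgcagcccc
Mki67: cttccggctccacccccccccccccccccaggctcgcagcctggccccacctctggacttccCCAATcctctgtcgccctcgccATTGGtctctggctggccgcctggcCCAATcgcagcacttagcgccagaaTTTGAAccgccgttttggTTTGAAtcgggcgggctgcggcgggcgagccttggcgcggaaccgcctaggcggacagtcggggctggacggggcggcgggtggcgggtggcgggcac
Cdk1: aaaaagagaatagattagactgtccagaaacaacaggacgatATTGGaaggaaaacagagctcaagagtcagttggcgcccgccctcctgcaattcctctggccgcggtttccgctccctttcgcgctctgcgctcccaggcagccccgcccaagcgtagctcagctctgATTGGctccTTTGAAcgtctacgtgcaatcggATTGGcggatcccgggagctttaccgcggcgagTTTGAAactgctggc
Ccnb1: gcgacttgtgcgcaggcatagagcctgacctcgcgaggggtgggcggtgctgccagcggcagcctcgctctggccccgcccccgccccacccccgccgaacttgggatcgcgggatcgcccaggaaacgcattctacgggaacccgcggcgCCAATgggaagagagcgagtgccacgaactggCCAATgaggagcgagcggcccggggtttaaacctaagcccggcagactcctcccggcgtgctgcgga
Plk4: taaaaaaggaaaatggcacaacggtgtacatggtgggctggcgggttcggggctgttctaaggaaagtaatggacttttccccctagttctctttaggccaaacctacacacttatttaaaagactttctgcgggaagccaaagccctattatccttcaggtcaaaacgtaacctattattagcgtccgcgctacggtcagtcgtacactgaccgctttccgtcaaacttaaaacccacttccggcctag
Bub3: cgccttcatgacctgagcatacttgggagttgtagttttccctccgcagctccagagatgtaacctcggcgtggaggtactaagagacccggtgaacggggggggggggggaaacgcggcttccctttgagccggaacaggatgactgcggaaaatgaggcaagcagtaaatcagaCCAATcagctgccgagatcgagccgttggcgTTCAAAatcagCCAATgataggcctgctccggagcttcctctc
Pttg1: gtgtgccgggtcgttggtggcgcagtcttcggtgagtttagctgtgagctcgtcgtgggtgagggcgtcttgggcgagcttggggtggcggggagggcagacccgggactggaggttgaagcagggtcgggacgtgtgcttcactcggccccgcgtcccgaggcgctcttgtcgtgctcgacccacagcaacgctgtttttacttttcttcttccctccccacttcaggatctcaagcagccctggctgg
The Ube2c window is chr2:164769679-164769928 on the plus strand, the Mki67 window chr7:135716380-135716629 on the minus strand, the Cdk1 window chr10:69352913-69353162 on the minus strand and the Ccnb1 window chr13:100786487-100786736 on the minus strand. The Plk4 window is chr3:40799701-40799950 on the plus strand, the Bub3 window chr7:131560120-131560369 on the plus strand and the Pttg1 window chr11:43425982-43426231 on the minus strand. Ube2c held 6 CCAAT matches, of which 2 overlap on opposite strands, and 1 CHR match whose first base lies 29 bases before the start. Mki67 and Cdk1 each held 2 CHR and 3 CCAAT matches. Ccnb1 held 2 CCAAT matches in this window and no TTTGAA or TTCGAA, and other forms of the CHR were not searched. Pttg1 and Plk4 held none of these letters, and Bub3 held 1 CHR and 2 CCAAT matches.

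Over the full windows, from 250 bases before to 50 bases after the start, 49 members were matched to the promoter table, Sgol1 through its RefSeq name Sgo1. Of these, Prc1, Ect2, Cenpk and Bub3 had several starts listed, and only the first was read. Ccna2, Cdc25c, Foxm1, Aurkb, Incenp, Spc24, Kif20a, Tpx2 and Smc4 were not matched. A CHR match was present in 37 of 49 members (75.5%) and in 19.4% of the promoters of all 27025 genes in the table, taking the first listed start of each gene. A CCAAT match was present in 36 members (73.5%) and in 37.9% of all promoters, and both elements in 32 members (65.3%) and in 7.7% of all promoters. Neither was present in 8 members (16.3%) and in 50.3% of all promoters. Besides Pttg1 and Plk4 these were Birc5, Nuf2, Kif18a, Ncaph, Mad2l1 and Melk, with log2 differences from 1.13 for Melk to 2.096 for Birc5, so members without the letters had small and large differences. These shares are a description of letters in a window and say nothing of binding in these cells.

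The genes of entry into mitosis had the largest group median in culture 1, at 1.34 on the log2 scale, against 2.18 in culture 2. Ccnb1 and Ccnb2 are the B-type cyclins that activate Cdk1. Ccnb2 (chromosome 9, 70255496 to 70269361, mm9) was at 52.9 FPKM in culture 1 and 8.44 FPKM in culture 2 in B10+ cells, against 16.5 and 1.09 FPKM in B10- cells, an order of cultures used for all pairs of values that follow. The B10+ value was the higher in each culture, although the groups overlap across cultures. Its log2 difference was 1.90 ± 0.39 (SD over 2 cultures; adjusted p = 0.0549 in limma, blocked on culture). Ccnb1 (chromosome 13, 101548694 to 101556441) was at 79.1 and 14.2 FPKM in B10+ cells, against 22.1 and 0.643 FPKM in B10- cells, a ratio of 3.58 in culture 1 and 22.0 in culture 2 (adjusted p = 0.0895 in limma, blocked on culture). Cdk1 itself was at 104 and 28.5 FPKM in B10+ cells, against 41.3 and 1.23 FPKM in B10- cells.

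Ccna2, the A-type cyclin of S and G2 phase and the most abundant of the group by mean FPKM, was at 111 and 32.5 FPKM in B10+ cells, against 54.6 and 2.57 FPKM in B10- cells. Its locus overlaps that of Exosc9, which was at 96.8 and 55.2 FPKM in B10+ cells, against 101.8 and 58.1 FPKM in B10- cells. In all, 8 members overlap another entry of the table (Ccna2, Ccnf, Cdc20, Foxm1, Kif20a, Ncapd2, Ncapg and Smc4), and because strand handling is unknown, reads of the overlapping genes may not have been kept apart. The phosphatases Cdc25b and Cdc25c remove the inhibitory phosphates from Cdk1. Cdc25b was at 8.62 and 2.79 FPKM in B10+ cells, against 2.69 and 0.370 FPKM in B10- cells, so its B10+ libraries both lay above its B10- libraries, by a narrow margin between cultures. Its log2 difference of 1.42 ± 0.06 (SD over 2 cultures) was nearly the same in both cultures, at 1.38 and 1.47. Cdc25c was at 12.6 and 2.94 FPKM in B10+ cells, against 4.39 and 0.0795 FPKM in B10- cells.

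Foxm1, the transcription factor that activates many late cell cycle genes, differed less between subsets than the other genes of the group. It was at 3.24 and 6.05 FPKM in B10+ cells, against 2.27 and 3.71 FPKM in B10- cells, and the log2 difference was 0.48 ± 0.15 (SD over 2 cultures; adjusted p = 0.313 in limma, blocked on culture). It was the 1 member with a higher level in culture 2 than in culture 1, in both subsets. The other 6 genes of the group were more than 2-fold higher in B10+ cells in both cultures on the log2(FPKM + 1) scale.

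Among the mitotic kinases, Plk1 and Nek2 had the smallest p. Plk1, a kinase of centrosome maturation and mitotic entry, was at 10.9 and 6.37 FPKM in B10+ cells, against 4.48 and 0.263 FPKM in B10- cells. Both B10+ values lay above both B10- values (adjusted p = 0.165 in limma, blocked on culture). Nek2, a kinase of centrosome separation, was at 22.0 and 8.68 FPKM in B10+ cells, against 8.69 and 0.196 FPKM in B10- cells, so that B10+ cells of culture 2 were level with B10- cells of culture 1. Plk4, which controls centriole duplication, was at 34.7 and 20.3 FPKM in B10+ cells, against 24.3 and 11.0 FPKM in B10- cells. Its ratios of 1.43 and 1.85 were small beside those of Plk1 (2.44 and 24.2).

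The chromosomal passenger complex, in which the kinase Aurkb is bound to Incenp, Birc5 (survivin) and Cdca8 (borealin), corrects faulty attachments and guides cytokinesis. Birc5 was at 73.9 and 17.5 FPKM in B10+ cells, against 38.0 and 0.944 FPKM in B10- cells. Incenp, the scaffold, was at 38.3 and 17.4 FPKM in B10+ cells, against 20.9 and 3.36 FPKM in B10- cells. Over the 4 subunits the log2 difference ran from 0.43 to 1.07 in culture 1 and from 2.08 to 3.62 in culture 2, with Aurkb the largest in both. Aurka, the spindle pole kinase, and Melk had log2 differences of 0.89 and 1.13, and all 9 genes of the kinase group were higher in B10+ cells in both cultures.

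The checkpoint group had the lowest group median over both cultures, 1.34 on the log2 scale. Ttk (Mps1), the kinase that starts checkpoint signalling, was at 14.3 and 4.06 FPKM in B10+ cells, against 8.28 and 0.475 FPKM in B10- cells (adjusted p = 0.204 in limma, blocked on culture). Mad2l1, which inhibits Cdc20, was at 62.6 and 17.7 FPKM in B10+ cells, against 37.9 and 3.78 FPKM in B10- cells. Bub1 and Bub1b, checkpoint proteins at the kinetochore, differed little in culture 1 (log2 differences of 0.31 and 0.49) and strongly in culture 2 (2.89 and 2.70). Bub3, the partner of both, was the most abundant of the group, at 135 and 57.8 FPKM in B10+ cells, against 97.3 and 39.8 FPKM in B10- cells. Its ratio was 1.39 in culture 1 and 1.45 in culture 2, the closest agreement between cultures of all 58 members on the log2 scale (SD over 2 cultures 0.04).

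The anaphase group held both the largest difference and the single member that was lower in B10+ cells. Ube2c (chromosome 2, 164595429 to 164598402, mm9), the ubiquitin-conjugating enzyme that works with the anaphase-promoting complex, was at 52.5 and 27.8 FPKM in B10+ cells, against 9.24 and 0.403 FPKM in B10- cells. The groups did not overlap, and the log2 difference of 3.37 ± 1.40 (SD over 2 cultures) had rank 12 among the 10367 tested entries (adjusted p = 0.0885 in limma, blocked on culture). Cdc20, the activator of the anaphase-promoting complex in mitosis, was at 86.7 and 21.7 FPKM in B10+ cells, against 36.1 and 2.11 FPKM in B10- cells. Its locus overlaps Elovl1, which was at 42.9 and 24.8 FPKM in B10+ cells, against 38.8 and 24.3 FPKM in B10- cells.

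Pttg1 (chromosome 11, 43233750 to 43239750, mm9) encodes securin, the inhibitor of separase that the complex destroys at anaphase. It was at 66.5 and 18.4 FPKM in B10+ cells, against 69.7 and 20.3 FPKM in B10- cells. Its log2 difference was -0.10 ± 0.05 (SD over 2 cultures; adjusted p = 0.743 in limma, blocked on culture), so it differed by little between subsets and by much between cultures. Espl1, the separase that securin holds in check, was at 10.6 and 6.13 FPKM in B10+ cells, against 7.33 and 0.202 FPKM in B10- cells. Sgol1 (shugoshin, which protects centromeric cohesion) was at 14.1 and 4.14 FPKM in B10+ cells, against 9.23 and 0.460 FPKM in B10- cells. Ccnf (cyclin F, a ubiquitin ligase subunit) had a log2 difference of 0.30 in culture 1 and 1.87 in culture 2.

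All 9 centromere and kinetochore genes were higher in B10+ cells in both cultures, and their median difference was 0.58 in culture 1 and 2.39 in culture 2 on the log2 scale. Cenpa, the histone H3 variant that marks centromeres, was at 45.8 and 14.7 FPKM in B10+ cells, against 16.4 and 1.99 FPKM in B10- cells (adjusted p = 0.0868 in limma, blocked on culture). Cenpf, a large kinetochore protein made late in the cell cycle, was at 5.62 and 5.61 FPKM in B10+ cells, against 2.35 and 0.0491 FPKM in B10- cells. Its B10+ level was nearly equal in the 2 cultures, and its ratio of 114 in culture 2 rests on a B10- value close to 0. Cenpe, the kinesin that carries chromosomes to the spindle equator, was at 15.6 and 12.5 FPKM in B10+ cells, against 8.34 and 1.24 FPKM in B10- cells.

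The Ndc80 complex joins kinetochores to microtubules. Its 4 subunits Ndc80, Nuf2, Spc24 and Spc25 lay close to each other in level, between 32.8 and 57.2 FPKM in B10+ cells and between 22.6 and 37.8 FPKM in B10- cells of culture 1. In culture 2 they lay between 5.41 and 10.8 FPKM in B10+ cells and between 0.277 and 1.40 FPKM in B10- cells. Spc24, the most abundant kinetochore member, was at 57.2 and 7.44 FPKM in B10+ cells, against 37.8 and 0.324 FPKM in B10- cells, and it had the largest difference between cultures in B10+ cells, with a ratio of 7.68. Cenpk and Cenpn, of the inner kinetochore, had log2 differences of 1.08 and 0.75.

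The kinesins and spindle assembly factors had the largest group median in culture 2, at 2.78, against 0.70 in culture 1. Kif11 (Eg5), the motor that pushes the spindle poles apart, was at 79.1 and 26.0 FPKM in B10+ cells, against 40.8 and 0.882 FPKM in B10- cells. Kif22, a chromosome-bound kinesin, was at 32.9 and 9.03 FPKM in B10+ cells, against 16.3 and 0.401 FPKM in B10- cells. Aspm, which acts at spindle poles, was at 11.8 and 6.36 FPKM in B10+ cells, against 6.32 and 0.739 FPKM in B10- cells, with the 6.36 and 6.32 nearly equal. None of the 11 genes was more than 2-fold higher in both cultures on the log2(FPKM + 1) scale, since all were below that in culture 1.

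Kif20a, a kinesin of the central spindle, was at 50.8 and 11.8 FPKM in B10+ cells, against 27.2 and 1.27 FPKM in B10- cells. Its locus overlaps Brd8 and Cdc23. Brd8 was at 32.2 and 20.2 FPKM in B10+ cells, against 31.4 and 20.4 FPKM in B10- cells. Kif20b had the smallest difference of the group, at 21.0 and 11.0 FPKM in B10+ cells, against 16.9 and 4.68 FPKM in B10- cells. Tpx2, which activates Aurka on the spindle, and Kif23 had log2 differences of 0.69 and 0.67 in culture 1 and of 3.43 and 3.06 in culture 2. Over both cultures the kinesins Kif2c, Kif4, Kif15 and Kif18a had log2 differences of 1.81, 1.66, 1.61 and 1.49.

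Among the 4 genes of the central spindle and cytokinesis, Prc1 had the largest difference in culture 1, at 1.39 on the log2 scale. Prc1, which bundles the microtubules of the central spindle, was at 61.5 and 16.7 FPKM in B10+ cells, against 22.9 and 3.05 FPKM in B10- cells. Its log2 difference was 1.76 ± 0.53 (SD over 2 cultures; adjusted p = 0.0723 in limma, blocked on culture). Racgap1, which with Kif23 forms centralspindlin, was at 49.4 and 12.4 FPKM in B10+ cells, against 26.0 and 0.838 FPKM in B10- cells. Anln (anillin, of the contractile ring) was at 7.73 and 3.53 FPKM in B10+ cells, against 5.12 and 0.0970 FPKM in B10- cells. Ect2, the exchange factor that switches on RhoA at the cell equator, had a log2 difference of 0.40 in culture 1 and 2.20 in culture 2.

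The genes of chromosome structure include Top2a and Smc4, the members with the highest FPKM in 3 of the 4 libraries. Top2a, the topoisomerase that untangles sister chromatids, was at 288 and 84.2 FPKM in B10+ cells, against 153 and 4.96 FPKM in B10- cells. Mki67 (Ki-67, which coats mitotic chromosomes and marks dividing cells) was at 65.8 and 51.3 FPKM in B10+ cells, against 34.9 and 0.815 FPKM in B10- cells. Both B10+ libraries lay above both B10- libraries, and the log2 difference of 4.85 in culture 2 was the largest of any member in either culture. Its difference in culture 1 was 0.90, and its adjusted p in limma with the block was 0.298.

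Condensin I compacts mitotic chromosomes through the ATPases Smc2 and Smc4, which condensin II shares, and through Ncapg, Ncapd2 and Ncaph. Smc4 was at 160 and 62.4 FPKM in B10+ cells, against 122 and 23.1 FPKM in B10- cells, and its locus overlaps Mir15b and Mir16-2, both listed at 0 in all 4 libraries. Ncapd2 was at 47.2 and 13.8 FPKM in B10+ cells, against 30.8 and 1.93 FPKM in B10- cells. The subunits specific to condensin I had log2 differences in culture 2 of 3.30 (Ncapg), 2.33 (Ncapd2) and 2.42 (Ncaph), and the shared Smc2 and Smc4 of 1.39 each. In culture 1 all 5 lay between 0.28 and 0.60.

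**Figure D3:**
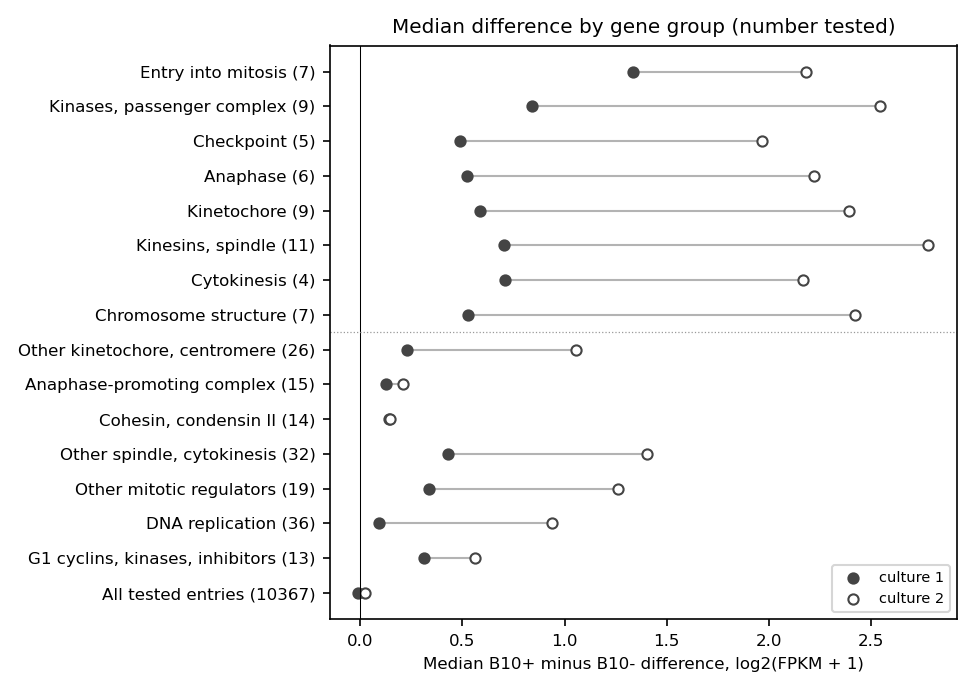
Median B10+ minus B10- difference of log2(FPKM + 1) in culture 1 (filled) and culture 2 (open) for the 8 role groups (above the dotted line), for other pathway lists and for all tested entries, with the number of genes tested in brackets. The role groups lie between 0.49 and 1.34 in culture 1 and between 1.96 and 2.78 in culture 2, and the median of all tested entries lies at -0.0085 and 0.021.

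Most of the mitotic genes were lower in culture 2, and by more in B10- cells. From culture 1 to culture 2 the members' FPKM were lower by a median factor of 3.40 in B10+ cells and of 21.3 in B10- cells. On the log2(FPKM + 1) scale the median difference of culture 2 minus culture 1 was -1.60 in B10+ cells and -3.26 in B10- cells, against -0.28 and -0.32 over all tested entries. Of the 58 genes, 30 were below 1 FPKM in B10- cells of culture 2 and 0 in any other library. Of all 10367 tested entries, 931 were below 1 FPKM in that library, against 402 to 546 in the others. Summed over the members, FPKM were 2803 and 919 in B10+ cells, against 1643 and 173 in B10- cells. The sums over all tested entries were 3.18e+07 and 3.09e+07 in B10+ cells, against 2.64e+07 and 5.38e+07 in B10- cells. Most of each was the highest value of the library, 2.99e+07 and 2.72e+07 in B10+ cells, against 2.32e+07 and 4.93e+07 in B10- cells. The bearing of this on the members' FPKM was not tested. The subset difference was larger in culture 2 for 57 of 58 members (98.3%), against 56.4% of all tested entries. With 1 library of either subset in a culture, whether the subset difference depends on the culture was not tested.

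**Figure D4:**
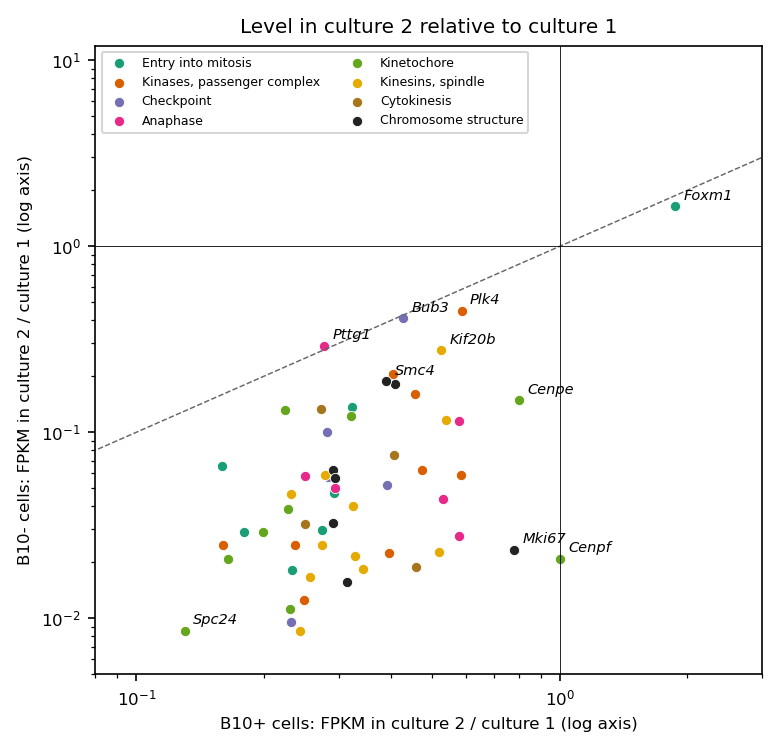
FPKM in culture 2 divided by FPKM in culture 1 for each mitotic gene, in B10+ cells (x axis) and B10- cells (y axis), both on log axes, with the dashed line marking equal ratios. Most genes lie far below the dashed line, Pttg1, Bub3, Plk4 and Foxm1 lie near it, and Foxm1 is the 1 gene above 1 in both subsets, at 1.87 and 1.64.

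Foxm1, Plk4, Bub3, Pttg1, Kif20b, Aurka, Smc4 and Smc2, in that order, had the highest ratios of culture 2 to culture 1 in B10- cells. Their ratios lay between 0.181 and 1.64, against a median of 0.0469 over the members, and their log2 differences between subsets between -0.10 and 0.89. Both quantities use the B10- library of culture 2, and these genes were picked after their values were seen. Across the 58 genes, measured in the same 4 libraries, the differences in culture 1 and in culture 2 had a Pearson correlation of 0.496 and a Spearman correlation of 0.479. The genes with the largest difference in culture 1 were Ube2c (2.39), Ccnb1 (1.796), Ccnb2 (1.62) and Cenpa (1.43), and in culture 2 Mki67 (4.85), Ube2c (4.36), Kif11 (3.84) and Top2a (3.84).

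Other genes of mitosis, from lists that hold no member, leaned the same way with smaller differences. Of 106 tested genes in 5 such lists, 79 were higher and 4 lower in B10+ cells in both cultures, against 3463 and 3297 of all 10367 tested entries. The median difference of the 106 genes was 0.24 in culture 1 and 0.84 in culture 2 on the log2 scale. None was called by limma across all tested entries in either model, and 43 had an unadjusted p under 0.05 with the block and 0 without it. Of all 10367 tested entries, 1572 had an unadjusted limma p under 0.05 with the block and 118 without it. The medians ran from 0.12 for cohesin and condensin II (14 tested) and 0.22 for the anaphase-promoting complex (15 tested) to 1.003 for other spindle and cytokinesis genes (32 tested). The list of the anaphase-promoting complex holds Ube2s, Fzr1 and Fbxo5 beside core subunits, at log2 differences of 0.37, 0.64 and 0.93. The core subunits are present through the whole cell cycle, unlike the partners Ube2c and Cdc20. Whether this bears on the small median of that list was not tested.

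The 2 genes with the smallest blocked p in each of these lists are given here. Fam83d, a spindle protein, was at 12.2 and 2.39 FPKM in B10+ cells, against 4.61 and 0.283 FPKM in B10- cells (adjusted p = 0.0687 in limma, blocked on culture). Hmgb2, a chromatin protein of dividing cells, was at 90.6 and 28.4 FPKM in B10+ cells, against 42.3 and 8.09 FPKM in B10- cells (adjusted p = 0.0851 in limma, blocked on culture). Fbxo5 (Emi1), an inhibitor of the anaphase-promoting complex, was at 64.7 and 14.0 FPKM in B10+ cells, against 35.4 and 6.44 FPKM in B10- cells. Fzr1 (Cdh1), Cenpp, Cenpl, Sgol2, Cdca5, Iqgap3 and H2afz had log2 differences between 0.61 and 1.73.

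DNA replication genes (36 tested) had a median log2 difference of 0.09 in culture 1 and 0.94 in culture 2. Of them, 23 were higher and 0 lower in B10+ cells in both cultures, against 33.4% of all tested entries higher in both. Rpa3 and Rfc5, of the replication fork, had log2 differences of 0.82 and 0.91. Among 13 tested G1 cyclins, kinases and inhibitors the smallest p belonged to the Cdk4 and Cdk6 inhibitors Cdkn2b and Cdkn2a. Cdkn2b was at 46.0 and 11.2 FPKM in B10+ cells, against 4.37 and 1.79 FPKM in B10- cells, and Cdkn2a at 12.4 and 3.90 FPKM, against 0.345 and 0.196 FPKM in B10- cells (adjusted p = 0.0557 and 0.0692 in limma, blocked on culture). Unlike the 57 members that were higher in B10+ cells, both had the larger difference in culture 1. No test of the mitotic genes against these lists was made.

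Markers of other cells were read beside these results. Pax5, a transcription factor that defines B cells, was at 20.9 and 41.6 FPKM in B10+ cells, against 24.1 and 38.7 FPKM in B10- cells. Ms4a1 (Cd20), a B cell surface protein, was at 195 and 66.7 FPKM in B10+ cells, against 253 and 65.5 FPKM in B10- cells. Of the other pan B cell genes read, Cd79a, Cd79b and Blk were higher in B10+ cells in both cultures, Ebf1, Cd22 and Cd74 were lower in both, and Fcrla differed in direction. Cd79b, a chain of the B cell receptor, was at 116 and 11.5 FPKM in B10+ cells, against 105 and 2.34 FPKM in B10- cells, and so was lowest in B10- cells of culture 2, as most mitotic genes were. Cd79a, its partner chain, was at 25.9 and 31.4 FPKM in B10+ cells, against 20.8 and 8.04 FPKM in B10- cells. Cd22, an inhibitory receptor, was at 16.5 and 9.47 FPKM in B10+ cells, against 36.5 and 11.8 FPKM in B10- cells. The summed FPKM of 12 T cell markers was 33.5 and 25.4 in B10+ cells, against 16.0 and 7.54 in B10- cells, with 6 of 12 reaching 1 FPKM anywhere. Cd3e, which defines T cells, was at 0.0257 and 0.298 FPKM in B10+ cells and listed at 0 in both B10- libraries. Cd8b1 was at 0.863 and 3.23 FPKM and Cd3g at 1.14 and 0.245 FPKM in B10+ cells, both at 0 in B10- cells. Zap70 was at 0.912 and 1.67 FPKM in B10+ cells, against 0 and 0.0140 FPKM in B10- cells. Lck alone among those reaching 1 FPKM differed in direction, at 7.93 and 6.57 FPKM in B10+ cells, against 10.1 and 3.42 FPKM. Cd2, which B cells also express, made up 20.3 and 10.3 FPKM of the B10+ sums, against 5.24 and 2.93 FPKM of the B10- sums. Macrophage and monocyte markers summed to 9.14 and 7.77 FPKM in B10+ cells, against 8.65 and 5.13 FPKM in B10- cells. Of these 12 markers, 2 reached 1 FPKM. Cd68 differed in direction, at 5.72 and 4.38 FPKM in B10+ cells, against 7.55 and 3.46 FPKM in B10- cells. Emr1 was higher in B10+ cells in both cultures, at 2.58 and 2.55 FPKM, against 0.836 and 0.220 FPKM in B10- cells. None of the 7 neutrophil or 5 NK cell markers reached 1 FPKM. The 6 plasma cell markers, of which 5 reached 1 FPKM in some library, summed to 617 and 664 FPKM in B10+ cells, against 488 and 600 FPKM in B10- cells, most of it from Irf4. Igj, the joining chain of secreted antibodies, was at 69.5 and 11.8 FPKM in B10+ cells, against 22.4 and 0.219 FPKM in B10- cells, the order of libraries seen in 49 of the mitotic genes. Prdm1 (Blimp-1), a regulator of plasma cells, was at 9.94 and 22.5 FPKM in B10+ cells, against 2.27 and 7.96 FPKM in B10- cells. Xbp1 and Irf4 were also higher in B10+ cells in both cultures. Sdc1 differed in direction, at 3.90 and 1.58 FPKM in B10+ cells, against 4.77 and 1.46 FPKM in B10- cells. Tnfrsf17 was at 0.0502 and 0 FPKM in B10+ cells, against 0.116 and 0 FPKM in B10- cells. The 8 erythroid markers, of which 2 reached 1 FPKM, summed to 37.2 and 48.3 FPKM in B10+ cells, against 43.2 and 86.6 FPKM in B10- cells. Most of the sum was Hbb-b1, at 28.9 and 43.7 FPKM in B10+ cells, against 39.4 and 80.8 FPKM in B10- cells. It was thus highest in B10- cells of culture 2, where most mitotic genes were lowest. Entries listed at 0 made up 19.4% and 36.2% of the table in B10+ cells, against 34.5% and 37.3% in B10- cells. The part of these markers and of library quality in the difference of the mitotic genes was not tested.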

How the data were processed

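RNA was sequenced from 4 libraries, 2 of B10+ and 2 of B10- cells. The authors deposited FPKM values with 1 column for each library, per the file's own sample sheet. Build mm9 and the tools bcl2fastq 1.8.4, TopHat 1.3.2, Cufflinks 2.1.1 and DESeq are listed, without roles, in the submitters' processing notes. Per the labels' protocols, ribosomal RNA was depleted. The annotation, strand handling and depth were not given in the sources used here, so no counting interval is printed.

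Values were tested as log2(FPKM + 1) with limma-trend (limma 3.58.1, R 4.3.3), two-sided, over 10367 entries with at least 1 FPKM in at least 2 libraries, with Benjamini-Hochberg adjustment over all of them. The main model had no term for culture. The labels say that each pair of libraries shares a culture, so a fit in which culture enters as the replicate block is printed beside it. That fit leaves 1 residual degree of freedom. Deviations from the group means correlated at 0.865 within a culture. Scripts were tested on simulated data.

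The members, role groups and lists were chosen with earlier results of these data known. Per library values are given for the 3 members with the smallest blocked p and the highest level in each role group, for members not higher in both cultures, and for any member past the threshold in the unblocked or blocked fit (0). Ccnb1, Cdk1, Foxm1, Plk4, Mki67, Espl1 and Kif20b were added after their values were seen. Starts in the table count from 0 and are printed with 1 added, because that gave spans equal to RefSeq gene lengths in 8902 of 20982 symbols. One marker of the sort is not reported here.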

Additional observations from a re-analysis of the deposited data

How the results depend on the processing

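With the culture as a replicate block, limma-trend called 89 entries where it called 0 without it. All with the block, it called 60 at a pseudocount of 0.1, 45 unfiltered, 71 at a minimum of 5 FPKM, 190 under quantile normalization and 388 under median centring. The alternatives at 5 FPKM with the block and of median centring with the block were chosen after seeing the data. Without the block it called 1 entry with a pseudocount of 0.1 and 1 after median centring. Fits on 3 libraries called from 4 to 144. Members called were 0 in each of these except 7 after quantile normalization and 16 after median centring, both with the block, and 0 to 28 in fits on 3 libraries. The cause of the scaling dependence was not tested. In the alternatives that kept all 4 libraries the median difference of the members stayed between 1.49 and 2.097. Fits on 3 libraries gave medians from -0.063 to 3.18.

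No member changed direction in the 11 alternatives that kept all 4 libraries. With a library left out, 32 members changed direction in at least 1 fit, 31 of them without B10- replicate 2. The ranges of their log2 differences over these fits were: Melk -0.68 to 2.95, Bub3 -0.13 to 1.13, Cenpn -0.47 to 1.97, Pttg1 -0.999 to 0.80, Aurka -0.10 to 1.88, Birc5 -0.067 to 4.26, Cdca8 -0.086 to 3.18, Bub1 -0.68 to 3.88, Bub1b -0.16 to 3.35, Ttk -0.075 to 2.58, Mad2l1 -0.18 to 2.85, Sgol1 -0.22 to 2.59, Ccnf -0.049 to 2.22, Cenpk -0.92 to 3.09, Ndc80 -0.68 to 3.32, Nuf2 -0.15 to 4.19, Spc24 -0.81 to 4.07, Spc25 -0.64 to 3.32, Kif2c -0.10 to 3.72, Kif4 -0.39 to 3.72, Kif15 -0.27 to 3.49, Kif18a -0.17 to 3.14, Kif20a -0.13 to 3.50, Kif20b -0.14 to 1.52, Tpx2 -0.047 to 4.17, Ect2 -0.21 to 2.81, Racgap1 -0.059 to 3.82, Smc2 -0.35 to 2.03, Smc4 -0.29 to 2.07, Ncapg -0.48 to 4.11, Ncapd2 -0.25 to 3.19, Ncaph -0.32 to 3.27. With 1 library left in a subset, that library is assumed to vary like the others. Depth is unknown, so values near 0 in B10- cells of culture 2 have no counting interval.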
